A study of Homo sapiens with 4 samples.

Results

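The genes described here are 10 members of the ephrin and Eph receptor family: the ephrins EFNA1, EFNA3, EFNB1 and EFNB2 and the receptors EPHA1, EPHA2, EPHA4, EPHB2, EPHB3 and EPHB4. Their probe sets were taken wherever the array annotation gave exactly 1 of these symbols. This found 18 of the 54675 probe sets, for 9 of the 10 genes, and EPHB2 was not analysed here. The RNA was from the established human colon cancer line HCT116, in one version labelled wt and one labelled wt/GFP. Spheroids, which are rounded multicellular aggregates, and monolayers on a flat surface were grown from both versions, and each combination had 1 Affymetrix array. The spheroid group and the monolayer group therefore held 2 arrays each, 1 per version, paired by cell line. The sources used here do not say how many cultures lie behind an array, so the p-values may measure technical spread. Within a line and condition there was no replicate.

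Eph receptors are tyrosine kinases of the cell surface, and their ligands, the ephrins, are bound to the membrane of the neighbouring cell. Signalling therefore needs contact between cells and runs both ways, forward through the receptor and in reverse through the ephrin. A-type ephrins are held by a lipid anchor and bind mostly EphA receptors, while B-type ephrins span the membrane and bind mostly EphB receptors. EPHA4 binds ephrins of both types. In the intestinal crypt, EphB receptors and B-type ephrins form opposing gradients that keep cells in position, and EPHB3 is a target of beta-catenin and TCF factors there.

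In spheroids, 7 of the 9 measured members rose, 1 fell and 1 did not pass the test. EPHA4, EPHB3 and EPHA1 rose most, by 3.54-fold, 3.29-fold and 2.94-fold. The ephrins EFNA1, EFNA3 and EFNB2 and the receptor EPHB4 rose by 1.5-fold to 1.88-fold. EPHA2 fell, by 1.67-fold. Across all 14349 genes tested, 30.6% passed in the upward and 18.5% in the downward direction (limma, adjusted p under 0.05), 49.1% in all, so a call alone is common in this comparison. A called rise of at least 2-fold was met by 3 of the 9 members and by 14.8% of all genes, and a called fall of that size by 0 members and by 5.04%. Folds are on a scale of log2(signal + 14.0), which understates the change of dim genes.

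Shown first are promoters of a pair of neighbouring ligand genes, of the receptor EPHA1 that rose, and of the receptor EPHA2 that fell. Each is given as the 250 bases before the gene's start in RefSeq (GRCh38.p14). Capitals mark ACGTG and GCGTG, the core letters that hypoxia-inducible factor binds, and CTTTGA and CTTTGT, core letters of TCF sites, each on either strand, so that the first pair can also read CACGT or CACGC. EFNA3 and EFNA1 stand on chromosome 1 with 40.3 kb and no other protein-coding gene between them. Both were called higher in the deposited values, but the call of EFNA3 was lost when the arrays were scaled otherwise, as given below. EFNA4, 9.28 kb from EFNA3 on its other side, was not called in the deposited values (log2 change -0.40).
EFNA1 (chr1:155127626-155127875, plus strand): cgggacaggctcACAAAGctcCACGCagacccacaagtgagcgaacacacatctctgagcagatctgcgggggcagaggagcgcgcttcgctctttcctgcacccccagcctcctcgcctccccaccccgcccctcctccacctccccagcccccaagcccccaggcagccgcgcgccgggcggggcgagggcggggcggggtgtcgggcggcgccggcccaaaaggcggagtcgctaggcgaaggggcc
EFNA3 (chr1:155078587-155078836, plus strand): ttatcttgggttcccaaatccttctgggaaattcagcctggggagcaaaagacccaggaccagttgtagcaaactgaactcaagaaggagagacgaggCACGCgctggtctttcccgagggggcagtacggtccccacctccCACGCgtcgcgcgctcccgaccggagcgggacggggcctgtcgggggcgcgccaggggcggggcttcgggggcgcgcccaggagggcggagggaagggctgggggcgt
EPHA1 (chr7:143408857-143409106, minus strand): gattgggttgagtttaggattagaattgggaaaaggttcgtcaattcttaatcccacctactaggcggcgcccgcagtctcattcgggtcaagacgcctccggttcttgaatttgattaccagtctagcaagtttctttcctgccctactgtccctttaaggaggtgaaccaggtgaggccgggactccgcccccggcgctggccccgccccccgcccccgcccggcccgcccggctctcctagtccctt
EPHA2 (chr1:16156070-16156319, minus strand): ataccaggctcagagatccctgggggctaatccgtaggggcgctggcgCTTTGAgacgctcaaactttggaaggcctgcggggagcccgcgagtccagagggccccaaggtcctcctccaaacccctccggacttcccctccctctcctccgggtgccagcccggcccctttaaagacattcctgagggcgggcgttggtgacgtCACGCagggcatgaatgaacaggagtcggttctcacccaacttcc

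Among the 10 promoter windows of the 9 genes, EPHA4 having 2, GCGTG was found in 7 and ACGTG in 1. In all 35093 RefSeq windows of that length the shares were 32.2% and 18.5%. The EFNA3 window held GCGTG 2 times, the EFNA1 and EPHA2 windows held it 1 time each, and the EPHA1 and EPHB3 windows held neither core. CTTTGA was found only in the EPHA2 window and CTTTGT only in the EFNA1 window, against 11.2% and 13.7% of all windows. The GC box GGGCGG was found in 10 of 10 member windows and in 42.6% of all windows. The palindrome CACGTG, which contains ACGTG, and the AP-1 site TGANTCA were found in 0 of the 10, with shares of 6.34% and 6.57% in all windows. TATAAA was found only in the EFNB2 window, against 10.7% of all windows. Of the 10 member windows, 9 had more CpG dinucleotides than the median of 11 over all windows, up to 40 in EFNB2. The ACGTG and GCGTG cores, CACGTG and the GC box each hold a CpG, and a part of CpG content in these counts was not tested. Both kinds of core stood in the EFNA1 window, whose gene rose, and in the EPHA2 window, whose gene fell. These matches describe letters and do not show binding, and a part of them in the changes was not tested.

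A few properties of the arrays moved with the culture condition. Over all probe sets, spheroid arrays had a median signal of 67.26 and 68.36, against 48.0 and 48.78 for monolayer arrays. The signal ratio of the 3' to the 5' probe set of ACTB, a sign of RNA integrity, was 1.76 and 1.73 in spheroids and 1.32 and 1.30 in monolayers. That of GAPDH did not separate the cultures, at 0.868 and 0.951 in spheroids and 0.897 and 0.882 in monolayers. Hybridisation controls, already labelled RNA from outside the cells that is added at the hybridisation step, gave higher signals on spheroid arrays. The median difference was 0.39 log2 units in wt and 0.78 in wt/GFP. These controls do not measure RNA input or RNA per cell. All genes tested had a median log2 change of 0.23 as deposited. Quantile normalization made it 0.019, median centring -0.17, and scaling each line to its hybridisation controls, named spike-in scaling here, -0.36. The part of these shifts in the results was not tested, and each member is therefore also given under the other 3 scalings. In these bulk cultures, a change in the share of cells that express a gene and a change in RNA per cell cannot be told apart.

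**Figure D1:**
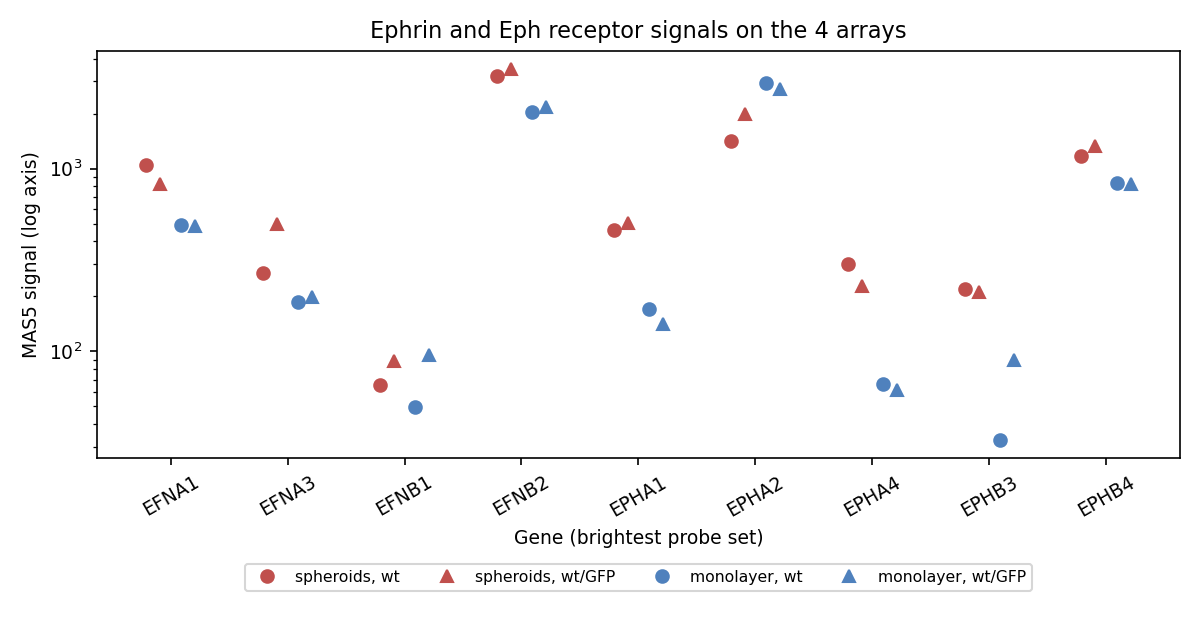
MAS5 signal of each of the 9 genes on a log axis, from its brightest probe set, in spheroids (red, left) and monolayers (blue, right), with circles for wt and triangles for wt/GFP. Spheroid and monolayer arrays are apart for 8 genes, and those of EFNB1 overlap.

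Among the A-type ligands, EFNA1 encodes ephrin-A1, a ligand of EPHA2 that was first found as a gene induced by tumour necrosis factor. Its signal was 1046 in wt and 825.2 in wt/GFP spheroids, against 490.1 and 484.5 in the monolayers of the same lines. Both spheroid arrays lay well above both monolayer arrays, which differed little from each other. The log2 change was 0.91 ± 0.16 (SE, 2 arrays per condition, limma adjusted p = 2.79e-05). The rise remained past the threshold after quantile normalization (0.72) and median centring (0.52) but not after spike-in scaling (0.33, adjusted p = 0.489).

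EFNA3 encodes ephrin-A3, another lipid-anchored ligand. Its signal was 269.4 in wt and 496.4 in wt/GFP spheroids, against 185 and 199.3 in monolayers. The groups did not overlap, but the wt/GFP spheroid array stood far above the wt one. The log2 change was 0.88 ± 0.24 (limma adjusted p = 0.00313), made of 0.51 in wt and 1.26 in wt/GFP. This call rested on 1 library and on the scaling. Without the wt/GFP spheroid array the change was 0.46 (adjusted p = 0.207), and under the other 3 scalings it was 0.30 to 0.54 and did not pass.

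Among the B-type ligands, EFNB2 encodes ephrin-B2, the main ligand of EPHB4 and a marker of arterial endothelium in blood vessels. Its signal was 3189 in wt and 3493 in wt/GFP spheroids, against 2049 and 2167 in monolayers. The change was nearly the same in both lines, at 0.63 log2 units in wt and 0.69 in wt/GFP. The fit gave 0.66 ± 0.12 (limma adjusted p = 3.07e-05). The change was 0.72 after quantile normalization, while 0.27 after median centring (adjusted p = 0.0604) and 0.07 after spike-in scaling (adjusted p = 0.900) did not pass. A dimmer probe set of the gene, tested alone, had a value of 0.40 ± 0.23 and did not pass (adjusted p = 0.174).

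EFNB1 encodes ephrin-B1, which contributes to sorting of cells at tissue borders. Its signal was 65.03 in wt and 88.98 in wt/GFP spheroids, against 49.84 and 95.24 in monolayers, so the groups overlapped. The log2 change was 0.11 ± 0.43 (limma adjusted p = 0.855), with a 95% interval from -0.77 to 0.99. This interval includes changes of the size seen for EFNA1 and EFNB2. The value was negative under the other 3 scalings, at -0.28 to -0.48, and passed in none of them.

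Among the EphA receptors, EPHA1 is the member after which the family was named. Its signal was 459.6 in wt and 506.4 in wt/GFP spheroids, against 170 and 140.6 in monolayers. In both lines the spheroid signal was more than 2.7 times that of the monolayer. The log2 change was 1.56 ± 0.23 (limma adjusted p = 2.08e-06), and 94.0% of all genes tested had a lower value. EPHA1 remained past the threshold under all 4 scalings, with a change of 0.97 to 1.56. A second kept probe set had 119.6 and 179.2 in spheroids, against 86.94 and 78.78 in monolayers. Its log2 difference, 0.73 ± 0.34, had the same sign but did not pass (adjusted p = 0.0935 over all probe sets). The remaining probe set lay below the filter on low values and had opposite signs in the 2 lines. Without probe sets shared between transcripts, the dimmer probe set stood for the gene and the call was lost (0.73, limma adjusted p = 0.0859).

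EPHA4 is the receptor that binds ephrins of both types and is known for guiding axons. Its signal was 301.1 in wt and 227.6 in wt/GFP spheroids, against 66.61 and 61.41 in monolayers. The monolayer arrays agreed closely and both spheroid arrays stood far above them. The log2 change was 1.82 ± 0.32 (limma adjusted p = 2.63e-05), the highest of the 9 members, with 1.97 in wt and 1.68 in wt/GFP. It remained past the threshold under all 4 scalings, at 1.24 to 1.82, and in all 16 alternatives tried. EPHA4 had 5 probe sets, of which 3 passed the filter. Tested alone, another one had 51.99 and 122.1 in spheroids, against 6.9 and 50.1 in monolayers, and a value of 1.37 ± 0.52 (adjusted p = 0.0367). It reached the test through the spheroid arrays, which favours a call, and it did not pass after quantile normalization (1.03, adjusted p = 0.144). The third one had a value of 0.78 ± 0.44 that did not pass (adjusted p = 0.164). Of the pair below the filter, 1 had a difference of 1.56 and the other, with signals of at most 15.16, of -0.33, both untested.

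EPHA2 is a receptor for ephrin-A1 that is abundant in many carcinomas and is also active without ligand. Its signal was 1419 in wt and 1988 in wt/GFP spheroids, against 2920 and 2721 in monolayers. Both spheroid arrays lay below both monolayer arrays, and the fall was greater in wt (-1.03) than in wt/GFP (-0.45), a difference that could not be tested. The log2 signal fell by 0.74 ± 0.13 (limma adjusted p = 3.25e-05). EPHA2 fell under all 4 scalings, with values of -0.70 to -1.33. It was the only receptor of the 5 measured members that fell, and 9.93% of all genes tested had a lower value. Its ligand gene EFNA1, described above, rose on the same arrays.

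Among the EphB receptors, EPHB3 is known for holding Paneth cells at the crypt base in mice. Its signal was 219.2 in wt and 212.2 in wt/GFP spheroids, against 32.92 and 90.15 in monolayers. The spheroid arrays agreed closely, and the monolayer arrays differed by 1.15 log2 units, the wt one being close to the filter threshold of 30.6. The log2 change was 1.72 ± 0.36 (limma adjusted p = 0.000266), made of 2.31 in wt and 1.12 in wt/GFP. It remained past the threshold under all 4 scalings, at 1.13 to 1.72. Without the wt monolayer array the change was 1.14, without the wt/GFP monolayer array it was 2.29, and it was 1.99 with no pseudocount and 1.24 with the median signal as pseudocount. The other probe set of EPHB3 lay below the filter, at 28.47 and 36.24 in spheroids and 10.49 and 40.58 in monolayers.

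EPHB4 is the receptor of ephrin-B2, known from veins and from colon epithelium. Its signal was 1178 in wt and 1323 in wt/GFP spheroids, against 834.9 and 818.3 in monolayers. The groups did not overlap and the lines agreed, with changes of 0.49 and 0.68. The fit gave 0.59 ± 0.14 (limma adjusted p = 0.000956). It passed after quantile normalization (0.48), but not after median centring (0.20, adjusted p = 0.270) or spike-in scaling (change under 0.01, adjusted p = 0.9999). A second kept probe set had 167.3 and 147.3 in spheroids, against 180.6 and 151.7 in monolayers. Its value was -0.070 ± 0.28 (adjusted p = 0.871), that of the mean of both probe sets was 0.26 (adjusted p = 0.194), and neither passed.

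**Figure D2:**
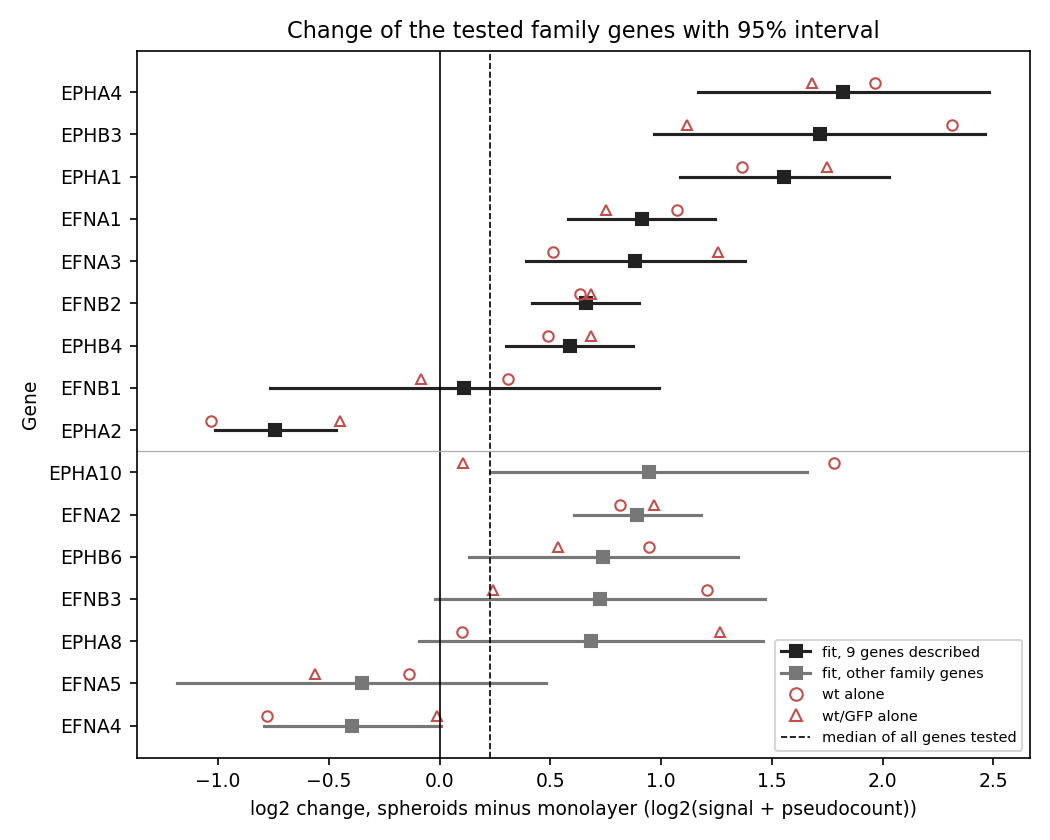
Log2 change, spheroids minus monolayer, of the 16 tested family genes, as the fitted value (square) with its 95% interval (line) and the change in wt (circle) and wt/GFP (triangle) alone; the dashed line is the median of all genes, 0.23. The intervals of EPHA4, EPHB3, EPHA1, EFNA1, EFNA3, EFNB2, EPHB4, EFNA2 and EPHA10 lie above that line, the last of them barely, and that of EPHA2 lies below 0.

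Over the 9 members, the median log2 change was 0.88, against 0.23 for all genes tested. The arrays of the groups did not overlap for 8 of 9 members and for 73.6% of all genes. They were apart with spheroids higher for 7 of 9 members and for 47.1% of all genes. Under all 4 scalings, EPHA1, EPHA4 and EPHB3 rose and EPHA2 fell, which was 3 and 1 of the 9 members, against 6.87% and 17.1% of all genes. After quantile normalization alone, 6 members were higher and 1 lower, against 23.6% and 21% of all genes. Median centring gave 4 and 1, against 16.4% and 32.3%. Spike-in scaling, which lowers each gene's change by 0.59, gave 3 and 1, against 6.89% and 25.7%. With no variance trend in the fit, EPHA1, EPHA4 and EFNA1 remained called, against 18.4% of all genes called higher and 8.18% lower. EPHA2, EPHB3, EPHB4, EFNA3 and EFNB2 then had adjusted p of 0.0515 to 0.0875.

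**Figure D3:**
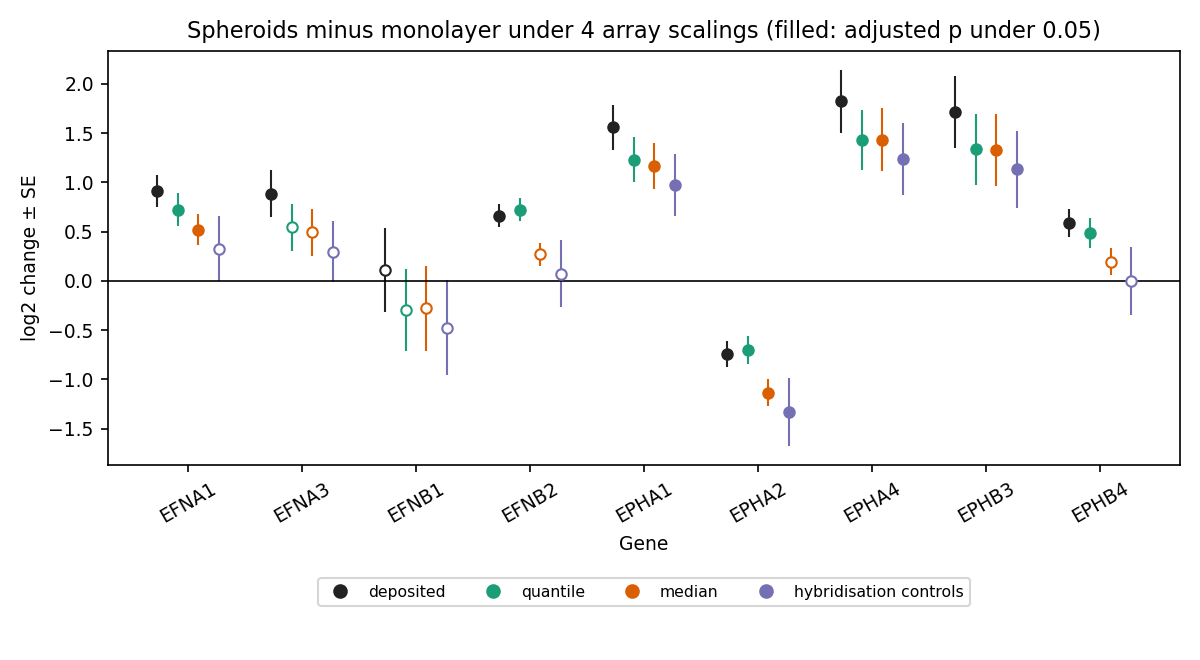
Log2 change ± SE of the 9 genes with the deposited scaling, quantile normalization, median centring and scaling to hybridisation controls, filled where the limma adjusted p was under 0.05. EPHA1, EPHA4, EPHB3 and EPHA2 are filled under all 4, and EFNB1 under none.

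Of the 18 probe sets of the 9 genes, 14 passed the filter. Tested alone, 8 of these rose and 1 fell, against 25.5% and 14.6%, together 40.1%, of all 32768 probe sets tested, and 5 did not pass. The 5 belong to EPHA1, EPHA4, EPHB4, EFNB1 and EFNB2. The 8 include the EPHA4 probe set that passed the filter through the spheroid arrays. After quantile normalization, this one (adjusted p = 0.144) and that of EFNA3 (adjusted p = 0.1005) no longer passed. EPHA2, EFNA1, EFNA3 and EFNB1 had 1 probe set each, so a second reading within the array was not possible for them. No gene had kept probe sets that passed in opposite directions.

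**Figure D4:**
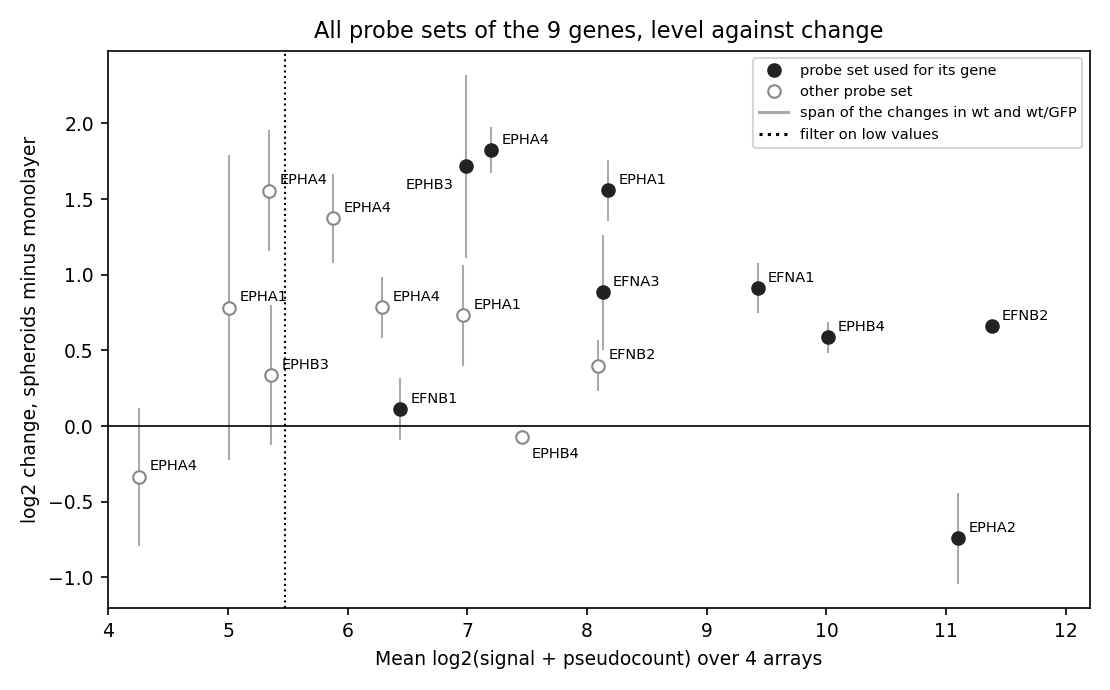
Log2 change, spheroids minus monolayer, against mean log2(signal + pseudocount) for all 18 probe sets of the 9 genes; filled points were used for their gene, grey lines span the changes in wt and wt/GFP, and the dotted line is the filter. Except for EPHB4 and for the dimmest EPHA4 probe set, points of 1 gene lie on the same side of 0.

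Of the other 12 Eph receptors and ephrins, 7 passed the filter, and 3 of these rose and 0 fell (limma, adjusted p under 0.05), against 30.6% and 18.5% of all genes. EFNA2, an A-type ligand, had 1320 and 1493 in spheroids, against 743.9 and 756 in monolayers. Its change was 0.89 ± 0.14 (limma adjusted p = 5.13e-06), and its call was lost after spike-in scaling (0.31). The other probe sets of EFNA2 lay below the filter, with no signal above 39.12 and untested differences of 0.05 and -0.59. EPHB6, a receptor that lacks kinase activity, had 216.1 and 204.3 in spheroids, against 105.6 and 136.6 in monolayers, a change of 0.74 ± 0.29 (adjusted p = 0.0391). EPHA10, likewise without kinase activity, had 239.9 in wt and 169.7 in wt/GFP spheroids, against 59.94 and 156.6 in monolayers. Its change of 0.94 ± 0.35 (adjusted p = 0.0263) came almost wholly from wt, with 1.78 against 0.11 in wt/GFP. Without the wt monolayer array it was 0.34, and neither EPHA10 nor EPHB6 passed under the other 3 scalings. A dimmer kept probe set of EPHA10 did not have this line difference, with 0.80 in wt and 0.99 in wt/GFP. Tested alone, that probe set did not pass (0.89 ± 0.48, limma adjusted p = 0.145). EPHB6 also did not pass without the wt spheroid (adjusted p = 0.134), wt/GFP spheroid (0.0996) or wt monolayer array (0.185). EFNA4, the neighbour of EFNA3 on chromosome 1 at a distance of 9.28 kb, did not pass with the deposited scaling, at -0.40 ± 0.19, and had lower values that passed under the other 3, at -0.64 to -0.98. The changes of EPHA8, EFNA5 and EFNB3 did not pass under any of the 4 scalings. EPHA3, EPHA5, EPHA6, EPHA7 and EPHB1 lay below the filter, with no signal above 50.91 in their brightest probe sets.

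Of 37 tested genes that act downstream of Eph receptors (adaptors, kinases, phosphatases and regulators of small GTPases), 17 rose and 2 fell, against 30.6% and 18.5% of all genes. Their median change was 0.25, close to the 0.23 of all genes. After quantile normalization 18 were higher and 3 lower, against 23.6% and 21% of all genes, with a median of 0.35 against 0.019. After median centring 8 were higher and 12 lower, against 16.4% and 32.3% of all genes. After spike-in scaling it was 2 and 7, against 6.89% and 25.7%. The counts were thus near the share of all genes after median centring and spike-in scaling, but not after quantile normalization. INPPL1, the lipid phosphatase SHIP2 that binds EPHA2, rose by 1.59 ± 0.19, with 758 and 1066 in spheroids, against 308 and 273.1 in monolayers. PIK3R1, the regulatory subunit of PI 3-kinase, rose by 1.36 ± 0.18, and both genes passed under all 4 scalings. PTPRO, a receptor phosphatase that acts on Eph receptors, rose by 1.36 ± 0.12, with only 1 of its 3 probe sets above the filter. GRB10, an adaptor, rose by 1.33 ± 0.15, but neither PTPRO nor GRB10 passed after spike-in scaling. The 2 genes that fell, ABL1 and the phosphatase PTPN1, were chosen after their values were seen. They changed by -0.47 ± 0.15 and -0.92 ± 0.14, and fell under all 4 scalings. The GTPases RHOA, RAC1 and CDC42, through which Eph signals reach the actin skeleton and which were also chosen after their values were seen, did not pass with the deposited scaling. Their values were -0.19, -0.0029 and -0.26, and all 3 were lower past the threshold after median centring and after spike-in scaling.

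Of 14 tested partners of B-type ephrins, 10 rose and 0 fell, against 30.6% and 18.5% of all genes, with a median change of 0.92. This became 7 higher and 1 lower after quantile normalization (all genes 23.6% and 21%), 7 and 2 after median centring (16.4% and 32.3%), and 4 and 1 after spike-in scaling (6.89% and 25.7%). CLDN4, a claudin of tight junctions that associates with ephrin-B1, rose by 2.27 ± 0.13, with 3047 and 3466 in spheroids, against 646.5 and 684.4 in monolayers. SDCBP, the PDZ protein syntenin that binds the tail of B-type ephrins, rose by 1.51 ± 0.12, with 19230 and 18660 in spheroids, against 6545 and 6714 in monolayers. STAT3, a transcription factor recruited to ephrin-B1, rose by 1.48 ± 0.13, and like CLDN4 and SDCBP it passed under all 4 scalings. GRIP2, a PDZ scaffold, had low signals of 90.05 and 50.2 in spheroids, against 20.4 and 10.09 in monolayers, and a value of 1.51 ± 0.59 (limma adjusted p = 0.0372). Its monolayer signals lay under the filter, so that it was tested through the spheroid arrays alone, and it passed only with the deposited scaling.

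A list of proteases and secretase subunits was taken from families with members that cut Eph receptors or ephrins. Not every listed gene is known to do so. Of 13 tested, 5 rose and 0 fell, against 30.6% and 18.5% of all genes, and their median change was 0.19. After quantile normalization 3 were higher and 1 lower, against 23.6% and 21%. Median centring gave 3 and 4, against 16.4% and 32.3%, and spike-in scaling gave 2 and 2, against 6.89% and 25.7%. Except after spike-in scaling, the counts of higher genes were near the share of all genes. ADAM10, which cuts ephrin-A ligands at cell contacts, had 10820 and 11320 in spheroids, against 4684 and 4381 in monolayers, and rose by 1.29 ± 0.12. ADAM19, a related metalloprotease, had 1583 and 1632 in spheroids, against 506.9 and 583.2 in monolayers, and rose by 1.54 ± 0.14. Both passed under all 4 scalings. ADAM12 rose by 1.17 ± 0.44 and MMP14, a membrane protease that cuts EPHA2, by 0.92 ± 0.27, and neither passed under the other 3 scalings.

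**Figure D5:**
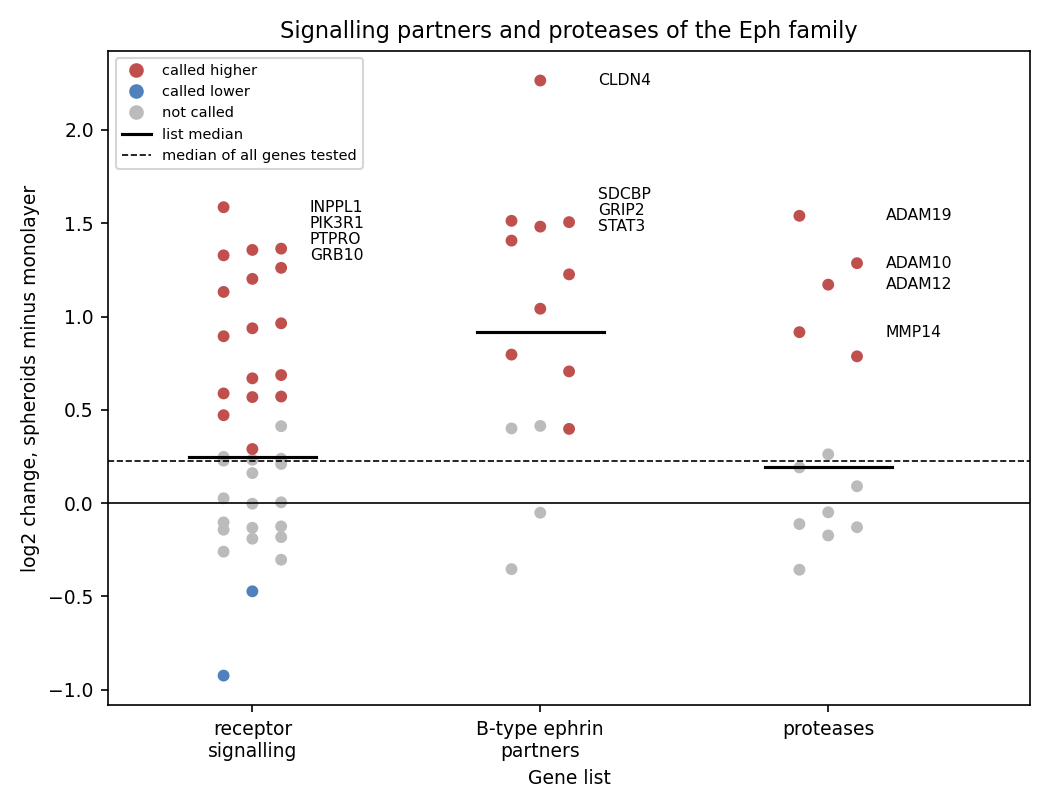
Log2 change, spheroids minus monolayer, of 37 receptor signalling genes, 14 partners of B-type ephrins and 13 proteases (points, red or blue where called), with list medians (bars) and the median of all genes (dashed). The median of the ephrin partners, 0.92, lies above the other list medians of 0.25 and 0.19.

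The labelled cell type was checked against markers. Of 13 epithelial markers, 10 passed the filter, and 5 of these rose and 0 fell, against 30.6% and 18.5% of all genes. After quantile normalization 4 were higher and 0 lower, against 23.6% and 21%. Median centring gave 2 and 1, against 16.4% and 32.3%, and spike-in scaling gave 2 and 2, against 6.89% and 25.7%. With both of the latter, EPCAM and KRT19 did not pass and KRT8 was lower. KRT18 was lower after spike-in scaling. Keratins and EPCAM were the brightest, with KRT18 at 32970 and 30900 in spheroids and 32540 and 25740 in monolayers, KRT19 at 31940 and 31890 against 26130 and 22430, and EPCAM at 29300 and 26560 against 23550 and 19610. The following were picked after their values were seen. KRT20, a keratin of differentiated intestinal cells, had 798.3 and 831.9 in spheroids, against 112.2 and 154.9 in monolayers, and CDH1, which encodes E-cadherin, had 4493 and 4866 against 915.7 and 888.8. They rose by 5.68-fold and 5.12-fold and passed under all 4 scalings. The intestinal marker VIL1 passed the test as deposited only, at 90.73 and 73.59 in spheroids, against 16.09 and 28.76 in monolayers, which lie under the filter, so that it was tested through the spheroid arrays. CDX2, LGALS4 and CEACAM5 passed the filter but not the test, and CDH17, CDX1 and GPA33 lay below the filter, with no signal above 39.48. Of 10 fibroblast markers, 5 passed the filter, and 3 of these rose and 0 fell, against 30.6% and 18.5% of all genes. The summed signal of the 5 was 2506 and 4066 in spheroids, against 412 and 531 in monolayers. COL1A1 made most of it, at 2275 and 3780 against 303.3 and 337.6, and rose under all 4 scalings. COL3A1, at 57.42 and 79.82 against 29.53 and 6.56, rose with the deposited scaling only. So did FAP, at 77.61 and 77.78 against 7.25 and 48.26. DCN had no signal above 79.07, and COL1A2, LUM, PDGFRA, PDGFRB and POSTN lay below the filter. Of 8 measured markers of white blood cells, 3 passed, with LYZ at 290.3 and 328.2 in spheroids, against 32 and 9.61 in monolayers, while PTPRC, CD3D and CD14 lay below the filter. Of 8 endothelial markers, which matter here because EFNB2 and EPHB4 also mark vessels, only PECAM1 and ESAM passed the filter. Their summed signal was 187 to 228 in spheroids and 181 to 242 in monolayers, which hides opposite directions. PECAM1 had 188.8 and 162.3 in spheroids, against 126.1 and 103 in monolayers, and passed the test under none of the 4 scalings. ESAM had low signals of 38.73 and 24.31 in spheroids, against 115.8 and 78.04 in monolayers. It was called lower under all 4 scalings. VWF, CDH5, KDR and TEK lay below the filter, with no signal above 57.06. The part of KRT20, CDH1, COL1A1, LYZ and the other markers that moved with culture in the results above was not tested.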

How the data were processed

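Biotin-labelled RNA was measured on 4 arrays. The deposited values are intensities on a linear scale, MAS5 signals per the submitters' processing notes; no version is named in the sources used here and detection calls were not used. All 4 arrays share a trimmed mean of 500.1. The annotation gave 41091 probe sets 1 symbol and 1801 more than 1, left 11721 unnamed, and 41037 symbols could be updated through gene identifiers. The deposited signals were turned into log2(signal + 14.0) values, the pseudocount being their 25th percentile. Probe sets with a mean log2 value above the 40th percentile (5.48) were kept, and each gene took its brightest.

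limma 3.58.1 in R 4.3.3 fitted condition and cell line over 4 arrays with a variance trend. With 1 residual against 25.9 prior degrees of freedom, errors rest mainly on other genes. P-values are two-sided with Benjamini-Hochberg adjustment over all genes, called under 0.05. An exact permutation of 2 against 2 arrays that ignores the pairing cannot go below 0.333. The pairing comes from the labelled cell line; line differences in spheroids and monolayers correlated at 0.00684 across genes. In 20 simulations with 14349 genes, 200 genes were changed, with independent noise and no shift between arrays. The fit recovered 73.9% of the 2-fold and 89.5% of the 4-fold changes that were put in, and 6.17% of calls were false. In the data 49.1% of genes were called and the counts moved with the scaling, so these rates may not hold for the real comparison.

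The members, lists, tests and alternatives were chosen with earlier results of these data known. All 10 members were to be named, other family genes if called, up to 4 called genes of each partner list and up to 3 bright genes of each marker list. Alternatives were the scaling, pseudocount, filter, probe set choice, line block, moderation and leaving out each array. Promoter sequences and positions come from RefSeq (GRCh38.p14), and no amino acid sequences were used here.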

Additional observations from a re-analysis of the deposited data

Results flagged for a closer look

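EFNB1 had opposite signs in the 2 lines, with a log2 change between spheroids and monolayer of 0.31 in wt and -0.085 in wt/GFP. Each line had 1 array per condition, so the difference between these changes was not tested. The gap of 0.39 is smaller than the standard error of the fitted change, 0.43. EFNB1 signals lay between 49.84 and 95.24, and its monolayer arrays differed by 0.78 log2 units, more than the change between cultures in either line.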

How the results depend on the processing

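The 9 members were refitted in 143 combinations of gene and alternative. In 127 they kept their side of the threshold and in 16 a call was lost, and no called change turned its direction. Of 7 members called higher, median centring left 4, spike-in scaling left 3 and the fit with no variance trend left 3. In the last, EPHA2 was also lost, giving 0 lower, against 18.4% of all genes called higher and 8.18% lower. Other settings gave 6 or 7 higher and 1 lower, and leaving out each array gave 6 to 7 and 1. The fit with no replicate block, unpaired by line, also gave 7 and 1, and among the other family genes it lost EPHA10 (adjusted p = 0.0694). Single losses were EPHA1 without probe sets shared between transcripts (0.73, adjusted p = 0.0859), EPHB4 with the mean of its probe sets (0.26), EFNA3 after quantile normalization (0.54) and EFNA3 without the wt/GFP spheroid array (0.46).

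Over all genes, 4393 were called higher and 2657 lower, so 62.3% of called genes were higher. The counts were 3383 and 3010 after quantile normalization (52.9%), 2348 and 4639 after median centring (33.6%), 988 and 3690 after spike-in scaling (21.1%), and 2646 and 1174 with no variance trend. Without shared probe sets, 11468 genes were tested and 1714 were lower. Leaving out each array gave 3512 to 3845 higher and 1940 to 2629 lower. The cause of these moves was not tested. With 1 array per line and condition, the number of arrays limits the precision.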
